A study of Homo sapiens with 9 samples.

Results

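Interferon regulatory factors and RNA sensors, by which a cell detects foreign RNA and answers interferon, were measured in HaCaT cells, an immortalized human keratinocyte line. The genes were STAT2, IRF9, IRF7, IRF3, IRF1 and IRF2, which act on transcription, and DDX58, IFIH1, DHX58 and TLR3, which recognise RNA. These 10 of the 16199 genes with an expected count above 0 in at least 1 library were chosen by gene symbol, and each was listed in every library. The 10 genes and the pathway lists below were chosen with earlier results of these data known. Shares of all genes given beside their counts are therefore a description and no test. Wild-type HaCaT cells were kept in serum-free medium without an added growth factor (untreated), or were incubated after confluence for 24 h with EGF (10 nM) or with bleogen pB1 (1 µM), a cysteine-rich peptide of the cactus Pereskia bleo that activates the EGF receptor, with 3 libraries in each group. The sample titles give no time for the untreated cells. The molar doses of the 2 ligands differ, so a difference between them is a difference between these doses. Messenger RNA was selected with oligo-dT and sequenced in bulk, where fewer cells that express a gene and less RNA of it per cell cannot be told apart. Nothing states that the 3 libraries of a group came from separate cultures, so p-values measure the spread between these libraries, which may be technical.

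RIG-I, encoded by DDX58, and MDA5, encoded by IFIH1, are helicases that bind viral RNA in the cytosol and signal through the adaptor MAVS, while TLR3 detects double-stranded RNA in endosomes and signals through TICAM1. Both routes activate the kinases TBK1 and IKKε, which phosphorylate IRF3 and IRF7 and so start transcription of interferon genes. Secreted type I and type III interferons then activate STAT2, which acts with IRF9 in the complex ISGF3. It binds interferon-stimulated response elements (ISRE), and several sensors and IRF7 are themselves targets of this complex. Keratinocytes express these sensors and respond to interferon as part of the antiviral barrier of the skin.

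The libraries held 20288417 to 21320994 expected counts on genes, and 3 counts corresponded to 0.141 to 0.148 CPM (counts relative to the TMM-scaled library size), a floor that covers counting error only. All 12 keratinocyte markers exceeded 1 CPM on average in each group, with summed levels of 14700 to 16900 CPM. These sums hide changes of single markers. By the limits given below, 2 of the 12 fell and 5 rose under EGF, against 21.8% and 15.1% of all tested genes (edgeR). Under bleogen pB1, 0 fell and 1 rose, against 1.26% and 0.218%. The 8 fibroblast markers summed to 7.62 to 9.31 CPM in untreated, 6.13 to 9.17 CPM in bleogen pB1-treated and 1.30 to 2.00 CPM in EGF-treated cells, with 2, 2 and 3 of them at 0 in all libraries of the group. The 5 endothelial markers summed to 3.44 to 4.78, 1.16 to 1.91 and 0.289 to 0.504 CPM in the same order, with 1, 1 and 2 at 0, and their part in the results was not tested. Melanocyte markers summed to at most 9.17 CPM and immune markers to at most 2.87 CPM in any library. The lowest level of any of the 10 genes in a library was 10.5 CPM, for DHX58.

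Promoter sequences of RefSeq, covering 250 bases before and 50 bases after the start of each gene, were matched for 6 of the 10 genes: STAT2, IRF1, IRF9, DDX58, IFIH1 and TLR3. They are shown because ISGF3 and STAT dimers bind known motifs. The ISRE core was searched as GAAANNGAAA and the gamma-activated site (GAS) as TTCNNNGAA, both on either strand. Among all 35116 promoters of this length, 3.574% held the first and 7.657% the second. The windows below are written 5′ to 3′ on the strand of the gene, with the matched letters in capitals, on GRCh38.p14.
IFIH1, distal ISRE: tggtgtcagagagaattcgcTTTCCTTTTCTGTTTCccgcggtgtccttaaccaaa
IFIH1, proximal ISRE: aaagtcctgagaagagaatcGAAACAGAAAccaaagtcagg
TLR3, ISRE: caagctttacTTTCACTTTCgagagtgccg
IRF1, GAS: acagcctgatTTCCCCGAAatgacggcac
IRF9, GAS: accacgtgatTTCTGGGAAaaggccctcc
The distal IFIH1 window (chr2:162318808-162318863, minus strand) held 2 overlapping matches between positions −159 and −144, and the proximal one (chr2:162318685-162318725, minus strand) held 1 at −21 to −12, counted from the RefSeq start. The proximal window overlaps no gene in GENCODE release 44, and the distal one overlaps a transcript of the neighbouring gene GCA. The TLR3 match (chr4:186069142-186069171, plus strand) spans the start, from −4 to 6, in sequence annotated as untranslated exon. The IRF1 match (chr5:132490879-132490907, minus strand) lies at −124 to −116 and outside annotated exons. The IRF9 match (chr14:24161192-24161220, plus strand) lies at −63 to −55, within an exon of an overlapping read-through gene. TLR3 also held 2 GAS matches, at −178 to −170 and −50 to −42. No match to either motif was present in these windows of STAT2 and DDX58, and the ISRE was matched in neither IRF1 nor IRF9. A match is a description of letters and was not tested for binding.

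Under bleogen pB1, STAT2, IRF7 and DHX58 fell, to between 61.5% and 68.8% of their untreated means, and no gene of the 10 rose. A gene was called when its adjusted p was 0.05 or less and it showed a log2 fold change (log2FC) of at least 0.5 in size (edgeR quasi-likelihood test, Benjamini-Hochberg adjustment over 12394 genes). These were 3 of 10 genes, where 1.26% of all tested genes were called lower and 0.218% higher. By the limit on the adjusted p alone, 6 of the 10 were lower and none higher, against 2.55% of all genes lower and 1.56% higher. The additional 3 were IRF9, DDX58 and TLR3. This count by p alone fell to 1, DHX58, without untreated replicate 1 or without bleogen pB1 replicate 3, was 3 without bleogen pB1 replicate 2 and 4 without untreated replicate 3, and ranged from 1 to 7 over the 6 such fits (edgeR). With the replicate number as a block it was 4, as IRF9 and TLR3 then had an edgeR adjusted p of 0.055 and 0.056. In all 10 genes every bleogen pB1-treated library lay under every untreated one, which held for 14.7% of all tested genes. The median log2FC of the 10 was −0.38, with a range from −0.70 to −0.08, beside −0.001 for all genes. When 1 library was left out in turn, 1 to 3 of the 10 were called, with 1 called without untreated replicate 1, without bleogen pB1 replicate 2 or without bleogen pB1 replicate 3.

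Under EGF, 8 of the 10 genes fell, all but IRF2 and IRF3, where 21.8% of all tested genes were called lower and 15.1% higher (edgeR). STAT2, IRF7 and DHX58 were reduced to 23.3%, 24.6% and 25.3% of their untreated means. The adjusted p alone was met by all 10, with 9 lower and IRF3 higher, against 33.6% of all genes lower and 32.4% higher. No gene of the 10 had overlapping EGF-treated and untreated libraries, against 35.9% of all genes that were lower and 34.5% that were higher without overlap. The median log2FC of the 10 was −1.50, with a range from −2.10 to 0.42, beside −0.01 for all genes. The EGF and bleogen pB1 comparisons share the same 3 untreated libraries, so their values are given side by side and not as independent results.

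**Figure D1:**
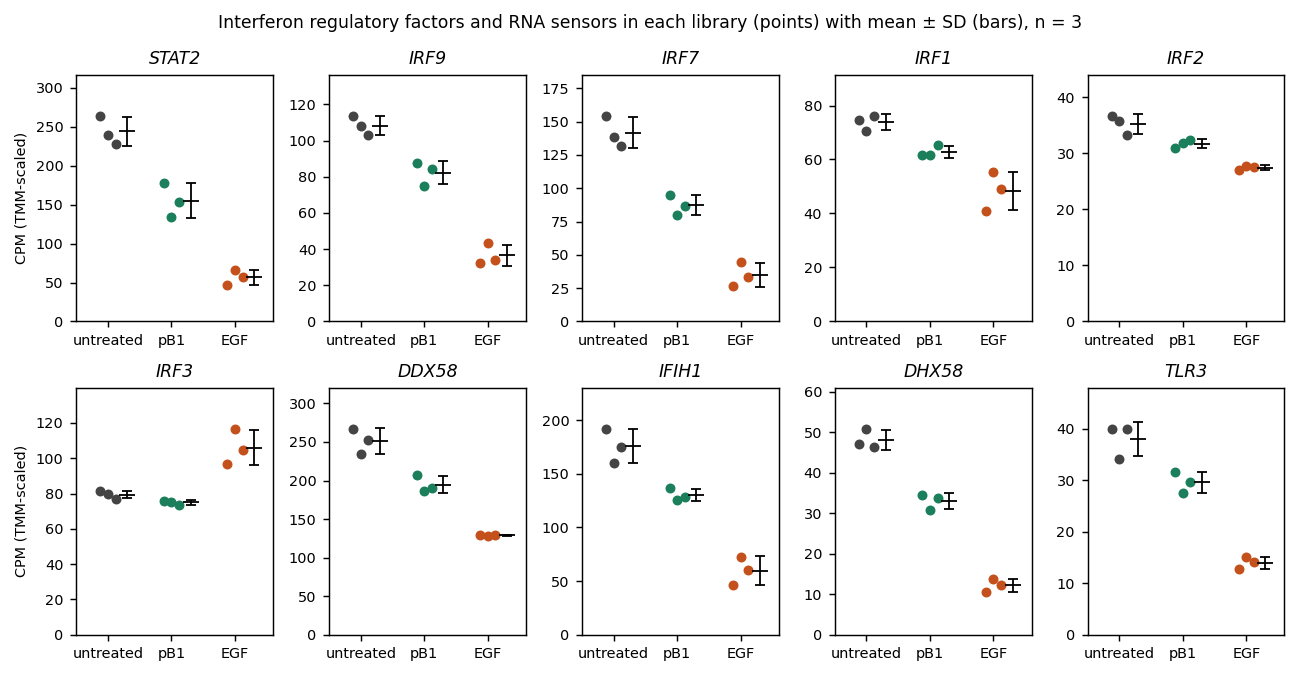
Level of each of the 10 genes in CPM (vertical axes, each starting at 0) in the 3 untreated, 3 bleogen pB1-treated and 3 EGF-treated libraries (points), with the mean and SD of each group (bars). STAT2 went from 228.2 to 264.3 CPM in untreated to 47.0 to 65.9 CPM in EGF-treated libraries, while IRF3 alone was highest with EGF, at 96.8 to 116.6 CPM.

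STAT2 (chromosome 12, 56341597 to 56360203, minus strand; gene positions follow GENCODE release 44, GRCh38) encodes the STAT protein specific to type I and type III interferon signals. It had 264.3, 239.7 and 228.2 CPM in untreated replicates 1 to 3, 178.2, 134.4 and 153.0 CPM with bleogen pB1 and 47.0, 65.9 and 57.7 CPM with EGF. The 3 groups did not overlap, and bleogen pB1 replicate 2 lay nearest to the EGF-treated libraries. Its log2FC was −0.65 under bleogen pB1 (SE 0.12, edgeR adjusted p = 0.0073) and −2.10 under EGF (SE 0.12, edgeR adjusted p = 2.2e-08). The call under bleogen pB1 held in 4 of 6 fits made without 1 library each, and the adjusted p was 0.054 without untreated replicate 1 and 0.051 without bleogen pB1 replicate 3 (edgeR).

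IRF9 (chromosome 14, 24161234 to 24168043, plus strand) encodes the DNA-binding partner of STAT2 in ISGF3. Untreated libraries had 113.8, 108.1 and 103.1 CPM, bleogen pB1-treated ones 87.5, 75.1 and 84.2 CPM and EGF-treated ones 32.2, 43.4 and 34.2 CPM. Again the groups were apart, with the EGF-treated libraries at 33.8% of the untreated mean. In GENCODE a read-through gene model on the same strand shares 1544 exonic bases with IRF9, and a non-coding one on the opposite strand shares 521. Neither was listed by its GENCODE name among the counted genes, and their part in the IRF9 value was not tested. The fall under EGF was 1.57 on the log2 scale, a log2FC of −1.57 (SE 0.10, edgeR adjusted p = 5.5e-08). Under bleogen pB1 the log2FC of −0.40 (SE 0.10, edgeR adjusted p = 0.039) passed the limit on p and not that on size.

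IRF7 (chromosome 11, 612553 to 615983, minus strand) encodes the factor that amplifies interferon-alpha transcription and is itself induced by interferon. Its levels were 154.4, 138.7 and 131.5 CPM in untreated, 94.9, 80.0 and 86.3 CPM in bleogen pB1-treated and 26.5, 44.6 and 33.1 CPM in EGF-treated libraries. No groups overlapped, and the EGF-treated libraries had the widest relative spread of the 10 genes, a coefficient of variation of 26.3%. IRF7 had the largest fold change of the 10 under bleogen pB1, −0.70 on the log2 scale (with an SE of 0.13, edgeR adjusted p = 0.012). That call held in 3 of the 6 fits without 1 library, and the adjusted p was 0.085, 0.065 and 0.071 without untreated replicate 1, bleogen pB1 replicate 2 and bleogen pB1 replicate 3 (edgeR). Under EGF its log2FC was −2.03 (SE 0.14, edgeR adjusted p = 1.2e-07).

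IRF3 (chromosome 19, 49659569 to 49665875, minus strand) encodes the factor that is present before infection and starts the first wave of interferon-beta. It had 81.3, 79.7 and 77.0 CPM in untreated, 76.0, 75.4 and 73.4 CPM in bleogen pB1-treated and 96.8, 116.6 and 104.5 CPM in EGF-treated libraries. The EGF-treated libraries were above all others, while the lowest untreated and the highest bleogen pB1-treated library were 77.0 and 76.0 CPM. Under EGF the log2FC was 0.42 (SE 0.07, edgeR adjusted p = 0.00015), under the limit of 0.5 in all fits tried, with 0.31 to 0.43 across other scaling factors. Under bleogen pB1 it was −0.08 (95% interval −0.23 to 0.07, edgeR adjusted p = 0.51). In GENCODE, IRF3 shares 734 exonic bases with BCL2L12 on the opposite strand, and whether the counting used the strand is not stated. BCL2L12 had 34.6 ± 0.510 CPM in untreated, 38.5 ± 2.20 CPM in bleogen pB1-treated and 43.1 ± 1.15 CPM in EGF-treated libraries (mean ± SD, n = 3 each), with a log2FC of 0.32 under EGF (SE 0.07, edgeR adjusted p = 0.0010), and its part in the IRF3 value was not tested.

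IRF1 (chromosome 5, 132440440 to 132508719, minus strand) encodes an activator that interferon-gamma induces. It had 74.5, 70.4 and 76.2 CPM in untreated, 61.6, 61.6 and 65.3 CPM in bleogen pB1-treated and 41.0, 55.2 and 49.1 CPM in EGF-treated libraries. EGF replicate 1 was the lowest library, and no groups overlapped. Its log2FC under EGF was −0.61 (SE 0.09, edgeR adjusted p = 6.7e-05), and −0.50, just short of the limit, without EGF replicate 1. Under bleogen pB1 it was −0.23 (SE 0.09, edgeR adjusted p = 0.15). Overlap was measured on the GENCODE model of IRF1, which holds 12265 exonic bases, while the counted transcripts averaged 3564 bases in untreated libraries. C5orf56, named CARINH in RefSeq and annotated as IRF1-AS1 on the opposite strand, shares 2805 exonic bases with that model. It had 2.92 ± 0.364 CPM in untreated, 2.07 ± 0.353 CPM in bleogen pB1-treated and 1.32 ± 0.190 CPM in EGF-treated libraries (mean ± SD, n = 3 each), with a log2FC of −1.14 under EGF (SE 0.22, edgeR adjusted p = 0.00055), and its part in the IRF1 value was not tested.

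IRF2 (chromosome 4, 184385702 to 184474558, minus strand) encodes a relative of IRF1 that binds the same elements and can repress them. Its levels were 36.7, 35.7 and 33.3 CPM in untreated, 30.9, 31.9 and 32.4 CPM in bleogen pB1-treated and 27.0, 27.7 and 27.6 CPM in EGF-treated libraries. The groups were close and did not overlap. The log2FC was −0.36 under EGF (SE 0.07, edgeR adjusted p = 0.00051) and −0.15 under bleogen pB1 (SE 0.07, edgeR adjusted p = 0.22), neither of which reached 0.5 in size.

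DDX58 (chromosome 9, 32455302 to 32526208, minus strand; RIGI in GENCODE) encodes RIG-I, which recognises short RNA with a 5′ triphosphate. It had 266.8, 234.3 and 252.4 CPM in untreated, 207.7, 186.3 and 190.2 CPM in bleogen pB1-treated and 129.5, 127.8 and 129.6 CPM in EGF-treated libraries. The EGF-treated libraries agreed within a coefficient of variation of 0.757%, the tightest of the 10. EGF lowered it by 0.96 on the log2 scale, a log2FC of −0.96 (SE 0.06, edgeR adjusted p = 6.9e-08). Under bleogen pB1 the log2FC was −0.37 (SE 0.06, edgeR adjusted p = 0.0057), past the limit on p and short of that on size. In GENCODE a second gene model on the same strand shares 4471 exonic bases with DDX58. That model was not listed by its GENCODE name among the counted genes, and its part in the DDX58 value was not tested.

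IFIH1 (chromosome 2, 162267074 to 162318684, minus strand) encodes MDA5, which recognises long double-stranded RNA, and carries the ISRE matches shown above. Untreated libraries had 191.8, 160.3 and 175.0 CPM, bleogen pB1-treated ones 137.0, 125.8 and 128.2 CPM and EGF-treated ones 46.2, 72.8 and 60.0 CPM. No groups overlapped, and EGF-treated libraries varied with a coefficient of variation of 22.3%. Its log2FC was −1.56 under EGF (SE 0.12, edgeR adjusted p = 3.9e-07) and −0.43 under bleogen pB1 (SE 0.12, edgeR adjusted p = 0.063), so that the latter passed neither limit.

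DHX58 (chromosome 17, 42101404 to 42112714, minus strand) encodes LGP2, a helicase without signalling domains that modulates RIG-I and MDA5. It had 47.1, 50.8 and 46.4 CPM in untreated, 34.6, 30.8 and 33.9 CPM in bleogen pB1-treated and 10.5, 13.7 and 12.3 CPM in EGF-treated libraries. The groups were well apart, and DHX58 had the smallest adjusted p of the 10 under both treatments. The log2FC was −0.54 under bleogen pB1 (SE 0.09, edgeR adjusted p = 0.0047) and −1.98 under EGF (SE 0.10, edgeR adjusted p = 5.1e-09). The first lay close to the limit on size, and the call held in 4 of the 6 fits without 1 library, with a log2FC just short of 0.5 in size without untreated replicate 2 or bleogen pB1 replicate 2.

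TLR3 (chromosome 4, 186068911 to 186088073, plus strand) encodes the endosomal receptor. Its ISRE match spans the RefSeq start, which lies downstream of the start in GENCODE. It had 39.9, 34.2 and 40.0 CPM in untreated, 31.6, 27.5 and 29.7 CPM in bleogen pB1-treated and 12.7, 15.1 and 14.1 CPM in EGF-treated libraries. The highest bleogen pB1-treated library lay just under the lowest untreated one, whereas the EGF-treated libraries were at 36.7% of the untreated mean. The log2FC was −1.45 under EGF (SE 0.10, edgeR adjusted p = 8.1e-08) and −0.36 under bleogen pB1 (SE 0.09, edgeR adjusted p = 0.047). Comparing 3 CPM values with 3 in a two-sided exact permutation test gave p = 0.1 for every one of the 10 genes in every comparison, the smallest p this design allows.

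**Figure D2:**
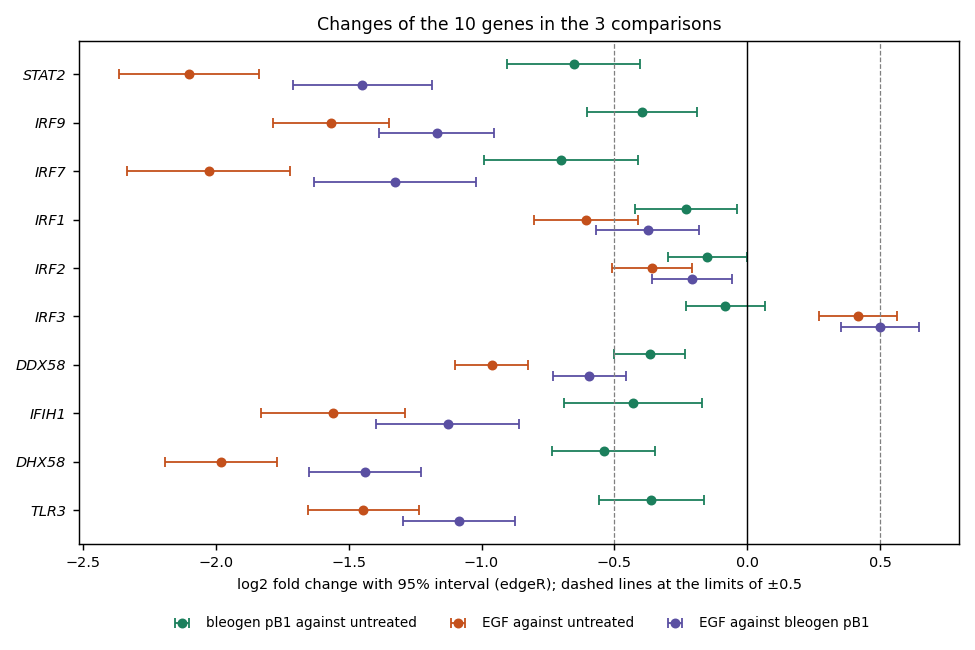
Log2 fold change of each gene (points) with its 95% interval (horizontal bars) for each treatment set against untreated cells and for the treatments set against each other, from edgeR. The dashed lines mark the limit of 0.5 in size, and the points of STAT2, IRF7 and DHX58 lie past it in all 3 comparisons. Under bleogen pB1 the 95% intervals of these genes include the limit, from −0.90 to −0.40, −0.99 to −0.41 and −0.73 to −0.35. IRF3 lies on the positive side for both comparisons with EGF.

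When EGF-treated cells were set against bleogen pB1-treated cells, at doses that differ, 7 of the 10 genes were called lower with EGF, where 18.0% of all tested genes were called lower and 10.8% higher (edgeR). By the adjusted p alone 9 were lower and 1 higher, against 29.7% and 28.5% of all genes, and the same 10 did not overlap between the treatments, against 31.7% of all genes lower and 30.7% higher without overlap. The 3 that were not called were IRF1, IRF2 and IRF3. STAT2 had a log2FC of −1.45 (SE 0.12, edgeR adjusted p = 7.7e-07), DHX58 of −1.44 (SE 0.10, edgeR adjusted p = 1.3e-07) and IRF7 of −1.33 (SE 0.14, edgeR adjusted p = 6.6e-06). IRF9, IFIH1 and TLR3 followed with −1.17, −1.13 and −1.08, and DDX58 with −0.59. IRF1 differed by −0.38 (SE 0.09, edgeR adjusted p = 0.0032) and IRF2 by −0.21 (SE 0.07, edgeR adjusted p = 0.020), past the limit on p only. IRF3 was higher with EGF by 0.4998 (SE 0.07, edgeR adjusted p = 5.2e-05), immediately below the limit of 0.5, and was called in 4 of the 6 fits that left out 1 library, the exceptions being those without EGF replicate 2 or bleogen pB1 replicate 3.

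Levels can be compared between genes per length, as FPKM. In untreated cells the order of the mean FPKM was IRF7 (74.8), IRF9 (67.2), STAT2 (54.7), DDX58 (54.0), IRF3 (53.0), IFIH1 (49.99), IRF1 (21.3), DHX58 (19.0), IRF2 (15.95) and TLR3 (12.9). The ranges over 3 libraries of IRF7 and IRF9 overlapped, as did those of neighbours from STAT2 to IFIH1, and the other neighbours were apart. With bleogen pB1 the order began with IRF9 (51.9), IRF3 (51.1), IRF7 (46.7) and DDX58 (42.4), whose neighbours overlapped. It went on with IFIH1 (37.6) and STAT2 (35.2), which overlapped each other, and ended with IRF1 (18.4), IRF2 (14.6), DHX58 (13.2) and TLR3 (10.1), each apart from the next. With EGF, IRF3 (68.6) stood first and apart from DDX58 (26.6), which was apart from IRF9 (21.7). IRF7 (17.5), IFIH1 (16.3), IRF1 (13.4), STAT2 (12.2) and IRF2 (11.9) then overlapped from neighbour to neighbour, with DHX58 (4.60) and TLR3 (4.52) last and overlapping.

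**Figure D3:**
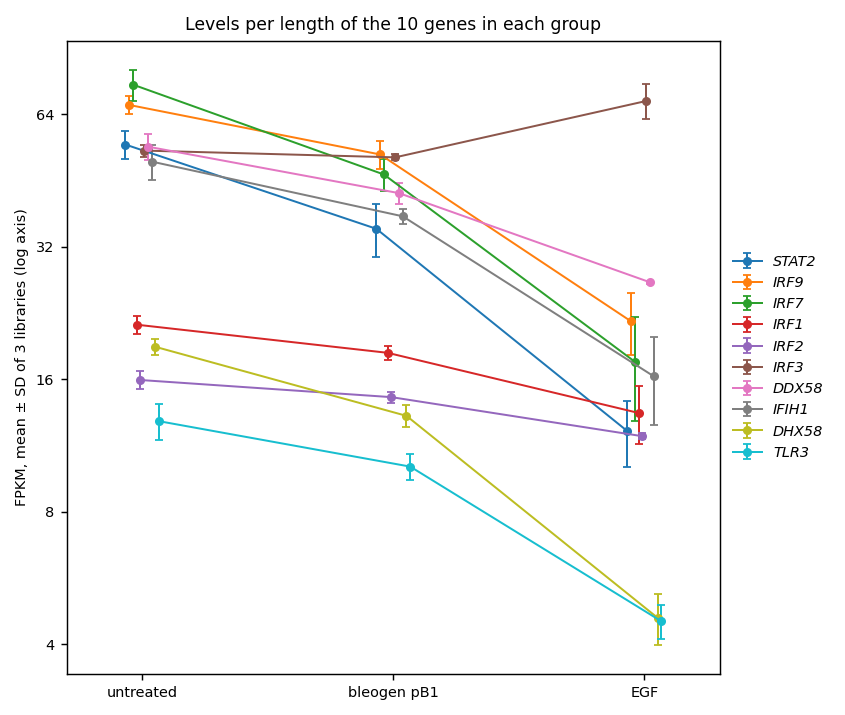
FPKM of the 10 genes in each group (points, means of 3 libraries, with SD as bars) on a log axis, joined by lines for each gene. IRF3 stood in the middle of a cluster near 50 FPKM in untreated cells and was the highest of the 10 with EGF, at 68.6 FPKM, while DHX58 and TLR3 were lowest, at 4.60 and 4.52 FPKM.

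The summed level of the 10 genes was 423 ± 22.5 FPKM in untreated, 321 ± 16.5 FPKM in bleogen pB1-treated and 197 ± 23.0 FPKM in EGF-treated libraries (mean ± SD, n = 3 each). Of this sum IRF3 made up 12.5% ± 0.346 in untreated libraries, 15.9% ± 1.03 with bleogen pB1 and 34.9% ± 0.909 with EGF (mean ± SD, n = 3 each). The ratio of IRF3 to IRF7 was 0.671, 0.724 and 0.735 in untreated libraries, 1.00, 1.21 and 1.09 with bleogen pB1 and 4.70, 3.34 and 4.06 with EGF. The 3 groups did not overlap in this ratio. For the RNA of the ISGF3 partners, the FPKM ratio of STAT2 to IRF9 was 0.812 ± 0.0220 in untreated libraries, 0.676 ± 0.0490 with bleogen pB1 and 0.564 ± 0.0435 with EGF (mean ± SD, n = 3 each). The proteins were not measured. Between the helicases, the ratio of DDX58 to IFIH1 was 1.05, 1.11 and 1.09 in untreated and 2.12, 1.33 and 1.63 in EGF-treated libraries, so that DDX58 exceeded IFIH1 more with EGF, most of all in replicate 1. It was 1.15, 1.12 and 1.12 with bleogen pB1, each above the untreated libraries. These ratios were described and not tested.

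The order of the libraries within a group was alike for most of the 10 genes, which was described and not tested. Of the EGF-treated libraries, replicate 1 was the lowest for 9 of the 10 genes, and the exception was DDX58. EGF replicate 2 was the highest for 9 of 10, again except for DDX58. Of all 12394 tested genes, 39.3% were lowest in EGF replicate 1 and 40.1% highest in EGF replicate 2. The median of the 10 genes relative to the untreated mean was −1.66, −1.29 and −1.48 on the log2 scale in EGF replicates 1 to 3. IRF3 followed the other genes within the group, with its lowest EGF value in replicate 1 and its highest in replicate 2. Of the bleogen pB1-treated libraries, replicate 1 was the highest for 8 of 10 genes and replicate 2 the lowest for 8 of 10, with medians of −0.29, −0.47 and −0.38 in replicates 1 to 3. Of all tested genes, 39.5% were highest in bleogen pB1 replicate 1 and 39.8% lowest in replicate 2. Counts over all genes differed most between replicates 1 and 2 in both treated groups, with a chi-square per degree of freedom of 20.2 for EGF and 20.5 for bleogen pB1, against 3.82 to 7.78 for the other pairs within a group. In bleogen pB1 replicate 1, the library nearest to the untreated ones, all 10 genes were still under the untreated mean. Untreated replicate 1 was the highest of its group for 7 of the 10 genes, where 28.5% of all tested genes were highest in it. Its median was 0.07, against −0.03 and −0.05 in untreated replicates 2 and 3.

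**Figure D4:**
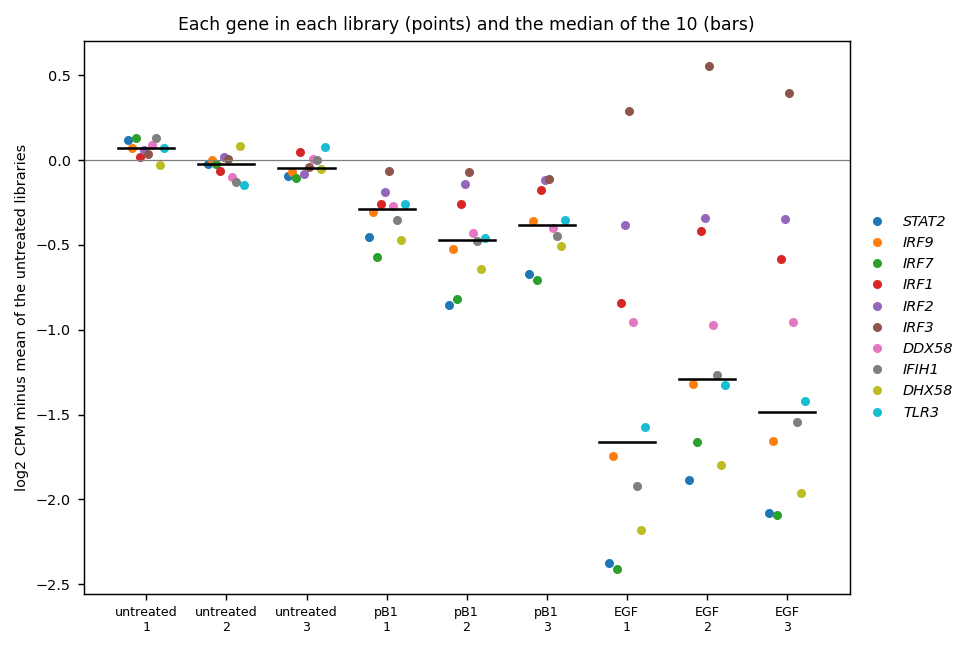
Log2 CPM of each gene in each library minus its mean over the untreated libraries (points, one colour for each gene), with the median of the 10 genes in each library (bars). Medians were −1.66, −1.29 and −1.48 in the EGF-treated and −0.29, −0.47 and −0.38 in the bleogen pB1-treated libraries, and IRF3 is the only point above 0 with EGF.

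The rest of the pathway was read from lists of 111 tested genes in 6 groups. Under bleogen pB1, 25 of the 111 were called lower and none higher (edgeR, the same limits), with a median log2FC of −0.16, beside −0.001 for all tested genes. Under EGF, 59 were called lower and 14 higher, with a median of −0.60, beside −0.01 for all. Among all tested genes 1.26% were called lower under bleogen pB1, and 21.8% lower and 15.1% higher under EGF, so the number of higher calls under EGF lay near that of genes at large. In EGF-treated against bleogen pB1-treated cells, 48 were lower and 10 higher, with a median of −0.37, where 18.0% of all genes were lower and 10.8% higher. The calls under bleogen pB1 lay in 3 of the 6 groups, the interferon-stimulated targets, the other nucleic acid sensors and the receptor and JAK-STAT genes. In the other 3 groups DESeq2 called none either, and 1 gene of the IRF family, 6 adaptors and kinases and 6 regulators had an unadjusted p under 0.05 with edgeR, as did 22.2% of all tested genes. At a background of 1.26%, no call in lists of 5 to 20 genes says nothing about those lists.

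Of the other genes of the IRF family and its binding partners, 5 were tested, and none was called under bleogen pB1. Under EGF, IRF5, which acts downstream of Toll-like receptors in immune cells, fell from 15.4 ± 1.08 to 7.68 ± 0.618 CPM (mean ± SD, n = 3 each; log2FC −1.001, SE 0.12, edgeR adjusted p = 1.2e-05). IRF2BPL, a relative of the IRF2-binding proteins, rose from 76.4 ± 1.99 to 120.6 ± 9.75 CPM (mean ± SD, n = 3 each; log2FC 0.66, edgeR adjusted p = 3.1e-06). IRF4 and IRF8, factors of immune cells that are named as family members and not by the rule for named genes, did not pass the count filter.

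Among 19 adaptors and kinases that link the sensors to IRF3 and IRF7, none was called under bleogen pB1, and under EGF 6 fell and 4 rose, with a median log2FC of 0.13. These counts lay near the shares of all genes under EGF, 21.8% lower and 15.1% higher. IKBKE, which encodes IKKε, fell from 49.3 ± 1.29 to 27.4 ± 1.47 CPM (mean ± SD, n = 3 each; log2FC −0.85, edgeR adjusted p = 4.2e-07). TICAM1, the adaptor of TLR3, rose from 29.4 ± 1.53 to 53.3 ± 4.66 CPM (mean ± SD, n = 3 each; log2FC 0.86, edgeR adjusted p = 1.1e-06). FADD, a death-domain adaptor, had a log2FC of 0.80 (edgeR adjusted p = 1.2e-06). TLR3 and its adaptor TICAM1 thus moved in opposite directions under EGF. MAVS, the adaptor of RIG-I and MDA5, had a log2FC of −0.43 (edgeR adjusted p = 4.9e-05), short of the limit on size, and TBK1 had one of 0.07 (edgeR adjusted p = 0.37). Neither MAVS nor TBK1 was picked by the rule for named genes. They are given as the central adaptor and kinase of the route.

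Among 20 regulators of the sensors, none was called under bleogen pB1, and under EGF 6 fell and 2 rose, again near 21.8% and 15.1% of all genes. TNFAIP3, which encodes the ubiquitin-editing enzyme A20 and dampens signalling, rose from 15.5 ± 2.46 to 87.2 ± 8.04 CPM (mean ± SD, n = 3 each; log2FC 2.49, edgeR adjusted p = 1.2e-08). DDX60, a helicase that promotes RIG-I signalling, fell from 317.6 ± 15.8 to 166.0 ± 10.3 CPM (mean ± SD, n = 3 each; log2FC −0.94, edgeR adjusted p = 8.7e-08). NLRX1, a mitochondrial protein that binds MAVS, fell by 1.55 on the log2 scale (edgeR adjusted p = 2.4e-07). With bleogen pB1, DDX60 had 294.0 ± 10.3 CPM (SD, n = 3), a log2FC of −0.11 (edgeR adjusted p = 0.32).

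Among 19 other sensors of nucleic acids, 4 fell under bleogen pB1, where 1.26% of all tested genes were called lower. Under EGF 12 fell and 3 rose, against 21.8% of all genes lower and 15.1% higher, so the number that rose lay near the share of all genes. IFIT1, which binds RNA, fell from 519.6 ± 29.5 to 330.5 ± 26.2 CPM with bleogen pB1 and to 59.3 ± 2.07 CPM with EGF (mean ± SD, n = 3 each). Its log2FC was −0.65 and −3.13 (edgeR adjusted p = 0.00028 and 2.6e-11). OAS1 and OAS2, which make 2′-5′ oligoadenylates from double-stranded RNA, had log2FC values of −0.78 and −0.89 with bleogen pB1 and of −2.59 and −2.68 with EGF, all called (edgeR). CGAS, the sensor of cytosolic DNA, was one of the 3 that rose under EGF, with a log2FC of 1.02 (edgeR adjusted p = 7.8e-06), and was named after its value was seen.

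Interferon genes themselves were near the floor. Of 15 ligand genes searched, 8 were listed in at least 1 library, with at most 13 expected counts in any of them, and none passed the count filter. Both ligands below are named as examples and not by the rule. IFNB1 had 0, 2 and 0 expected counts in untreated libraries, 1, 0 and 2 with bleogen pB1 and 0 in each of the EGF-treated libraries. A count of 0 allows up to 3 counts in that library. IFNL1, a type III interferon, had 7, 9 and 6 expected counts in untreated libraries, 8, 13 and 10 with bleogen pB1 and 2, 1 and 6 with EGF. No test of the ligands was made at these counts.

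Among 18 receptor and JAK-STAT genes, 2 fell under bleogen pB1, where 1.26% of all tested genes did. Under EGF 4 fell and 4 rose, where 21.8% and 15.1% of all genes did. USP18, a protease that removes ISG15 and restrains the type I receptor, fell from 96.7 ± 4.83 to 64.5 ± 1.21 CPM with bleogen pB1 and to 24.2 ± 4.35 CPM with EGF (mean ± SD, n = 3 each). Its log2FC was −0.58 and −1.997 (edgeR adjusted p = 0.0047 and 7.5e-09). PTPN11, a phosphatase of growth factor signalling, rose under EGF by 0.81 on the log2 scale (edgeR adjusted p = 6.2e-07). The receptor genes IFNAR1 and IFNAR2, named as the receptor of type I interferon and not by the rule, had log2FC values of 0.12 and 0.02 under EGF and of −0.06 and 0.17 under bleogen pB1 (edgeR adjusted p of 0.12, 0.92, 0.64 and 0.46). Of 30 interferon-stimulated targets, 19 fell under bleogen pB1 and all 30 under EGF, with medians of −0.58 and −2.20 on the log2 scale. Of all tested genes, 1.26% and 21.8% were called lower. This list, like the other lists, was chosen with earlier results of these data known. IFIT3 fell from 699.0 ± 37.98 to 459.1 ± 25.5 CPM with bleogen pB1 and to 111.7 ± 7.33 CPM with EGF (mean ± SD, n = 3 each). RSAD2, which encodes viperin, fell by 2.55 under EGF, and PARP9 fell by 1.97 under EGF and by 0.57 under bleogen pB1 on the log2 scale (edgeR adjusted p = 7.4e-11, 1.7e-10 and 0.00033).

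**Figure D5:**
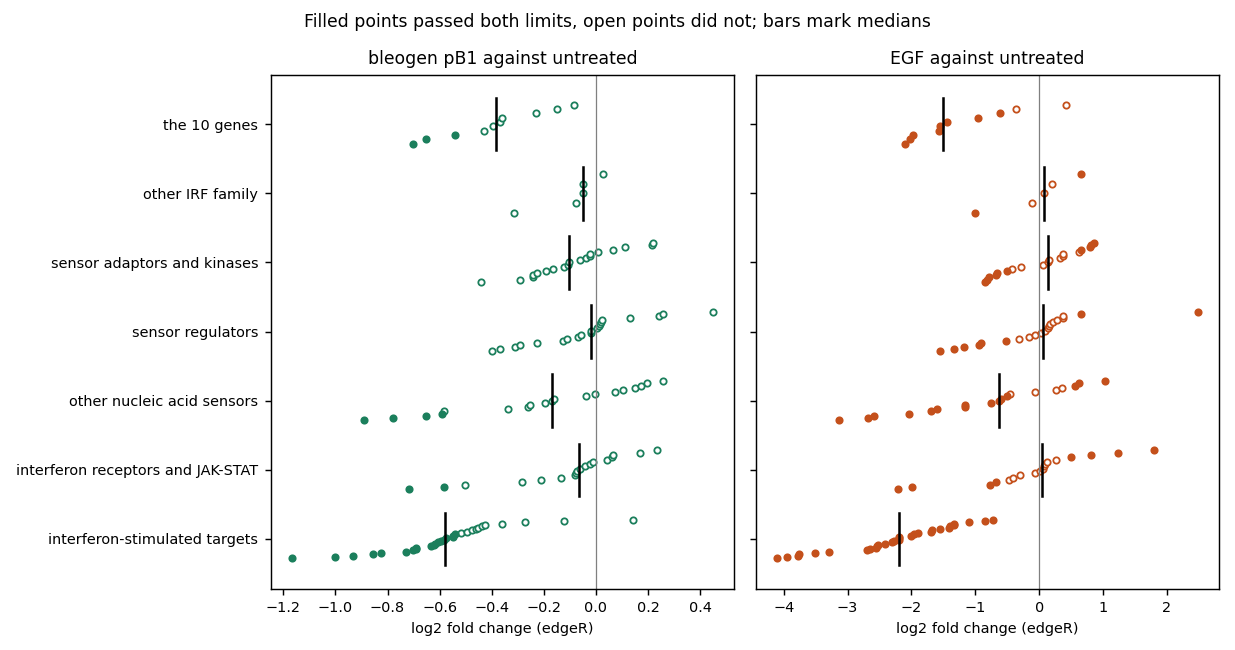
Log2 fold change (horizontal axes, which differ between the panels) of the 10 genes and of the genes of 6 pathway lists under bleogen pB1 (left) and EGF (right), with the median of each list as a bar and filled points for genes that passed both limits. The interferon-stimulated targets have medians of −0.58 and −2.20, and the adaptors, regulators and receptors have medians of −0.10, −0.02 and −0.07 with bleogen pB1 and of 0.13, 0.06 and 0.04 with EGF, the last 2 of which turn to −0.05 and −0.07 with upper-quartile factors.

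For each of the 8 genes called under EGF, the nearest profiles were sought among all tested genes, as the root mean square distance of the log2 CPM, centred on the untreated mean, over the 9 libraries. STAT2 lay nearest to UBE2L6 (0.064) and ISG15 (0.081), which encode the conjugating enzyme and the modifier of ISGylation. IRF7 lay nearest to STAT2 (0.088) and CMPK2 (0.106), and IRF9 to TRIM34 (0.065) and TRPV1 (0.079). IFIH1 had the same neighbours as IRF9, TRPV1 (0.082) and TRIM34 (0.092). DHX58 lay nearest to C1R (0.067) and PARP9 (0.089), and TLR3 to BTN3A3 (0.069) and SCPEP1 (0.089). DDX58 lay nearest to ATRN and SUOX (0.068 each), and IRF1 to FZD5 (0.053) and TXNDC16 (0.062). These distances describe profiles over 9 libraries that share their treatments and untreated reference, and were not tested.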

How the data were processed

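RNA of HaCaT keratinocytes was sequenced in 9 libraries, 3 per group. The authors had reads mapped to GRCh38.p12 in the online system of BGI. Per gene and library, the authors deposited expected counts (estimates not scaled for depth), FPKM (scaled for length and depth) and the average transcript length, another deposited value. The aligner, the counter and its use of strand are not given in the sources used here. Genes absent from a file were counted as 0.

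Expected counts were rounded and fitted with edgeR 4.0.16 in R 4.3.3 (filterByExpr, TMM, quasi-likelihood test, all 9 libraries, 6 residual degrees of freedom, Benjamini-Hochberg adjustment over 12394 genes). Genes were called at an adjusted p of at most 0.05 and a log2 fold change of at least 0.5 in size. SE was computed from the fold change and the F statistic, as |log2FC| over the root of F. Promoters came from RefSeq (GRCh38.p14) and coordinates from GENCODE release 44. Alternatives used DESeq2 1.42.0, limma 3.58.1 on log2(FPKM + 1) or log2(FPKM + 0.1), other scaling and filters, each library left out and a replicate block. The fits were tested on simulated data. Depth ranged from 20288417 to 21320994 expected counts.

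The 10 genes and the pathway lists were chosen with earlier results of these data known. Named genes were the 10, in each list up to 3 called genes with the smallest adjusted p under EGF and up to 2 under bleogen pB1, and the 2 nearest profiles of each of the 10 genes called under EGF. Marker genes are given as sums. Genes that overlap one of the 10, and other genes marked in the text, are named outside this rule. Single values of 2 list genes are not reported here, though both genes entered every fit and count.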

Additional observations from a re-analysis of the deposited data

How the results depend on the processing

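Results of single genes were compared with the main fit 570 times, over other fits and 2 other rules for a call. The 2 rules, the adjusted p alone and a log2 fold change of at least 1, kept the fold changes of the main fit. Signs could therefore change only in the other fits. Of the 570, 535 kept their call or lack of one, though some crossed the limit on p alone. Another 20 were no longer called, 15 were newly called and none changed sign. Under bleogen pB1, 3 of the 10 genes were called, against 0 with limma on log2(FPKM + 1), 1 with limma on log2(FPKM + 0.1), 6 with the adjusted p alone and 0 with a log2 fold change of at least 1. When only genes with an FPKM of at least 1 in 3 libraries entered the fit on log2(FPKM + 1), 2 of the 10 genes and 146 of all were called at the same fold changes, so the lower counts with FPKM depend in part on that filter. Leaving out 1 library gave 1 to 3 genes under bleogen pB1, 7 to 8 under EGF and 7 to 8 between the treatments. Among all genes, bleogen pB1 gave 183 calls, and 99, 509 and 31 with log2(FPKM + 1), the adjusted p alone and the fold change of at least 1, and 102 to 436 without 1 library. For EGF 4578 genes were called, with 8187 and 1892 by the latter 2 rules, and between the treatments 3564, with 7214 and 1458. Upper-quartile factors moved the median of all genes to −0.118 under EGF and the share of higher calls from 41.0% to 30.2%, and IRF3 was then at 0.31, still positive.

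With the replicate number as a block, 3, 8 and 7 of the 10 genes were called under bleogen pB1, under EGF and between the treatments, the same counts as without it, and by the adjusted p alone 4, 10 and 10, against 6, 10 and 10. The numbers come from the sample names alone. Deviations of same-numbered libraries correlated at 0.0113 to 0.252 between untreated and bleogen pB1-treated cells, −0.0214 to 0.0229 between untreated and EGF-treated cells and 0.0237 to 0.0423 between the treatments, and not every library correlated best with its own number. The 3 libraries per group limit the precision, and genes near 0.5 on the log2 scale, such as DHX58 under bleogen pB1 and IRF3 between the treatments, can pass or fail with small changes. Interferon ligand genes were too low to test.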
